A study of Mus musculus with 6 samples.

Results

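The 9 genes described here encode core parts of the renin-angiotensin system: renin (Ren1), angiotensinogen (Agt), the peptidases Ace, Enpep and Mme, the angiotensin receptors Agtr1a, Agtr1b and Agtr2, and the prorenin receptor Atp6ap2. They were chosen by symbol from the 24422 genes of the deposited count tables, and all 9 symbols were present. Reads of poly-A RNA were counted for each gene in whole kidneys of 3 Control and 3 TfR1 knockout mice, taken 13 days after birth. All were C57BL/6 mice fed an iron sufficient diet (220 ppm iron). The Control kidneys were labelled wild type. The TfR1 knockout kidneys carried the Tfr1f/f;SixCre genotype, in which the transferrin receptor gene Tfrc, floxed at exons 3 and 4, is deleted by a Cre driven from Six2, a gene of nephron progenitors. This lineage gives rise to the nephron epithelium and not to the renin cells, vessels, stroma or collecting ducts, and the study describes nephron cells that escaped deletion. The comparison asked which transcripts of the whole kidney differed when the receptor was targeted in this lineage.

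Renin is secreted by juxtaglomerular cells at the glomerular arteriole and cuts angiotensin I from angiotensinogen. Ace converts angiotensin I to the active peptide angiotensin II, Enpep (aminopeptidase A) shortens angiotensin II to angiotensin III, and Mme (neprilysin) turns angiotensin I into shorter peptides. Agtr1a and Agtr1b are the mouse type 1 receptors, through which angiotensin II constricts vessels and retains sodium. Agtr2, the type 2 receptor, is known for its high expression in fetal mesenchyme. Ace, Enpep and Mme are abundant on the proximal tubule brush border, and the system is required for normal development of the renal papilla and vessels.

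Total counts ran from 16591156 to 22898008 per library. Normalized counts are counts divided by DESeq2 size factors. Tfrc itself ranged from 3667 to 6485 normalized counts in Control and from 4045 to 6976 in TfR1 knockout libraries, so its total count did not separate the groups, and reads within the floxed exons were not analysed here. Kidney markers were present in every library, but RNA of another organ was too. All 11 adrenal markers in a list that includes Cyp11b1, Star and Th were highest in Control replicate 1 and second highest in TfR1 knockout replicate 3, with summed normalized counts of 26427 and 3345 against 189 to 411 in the other 4 libraries. DESeq2 gave an adjusted p to 2 of these markers and called 0, with 0 at an unadjusted p under 0.05 by DESeq2 or edgeR. Control replicate 3 stood apart from the other Controls in its tubule and stroma genes. Among Control libraries it had the lowest value for 17 of 18 proximal tubule markers, and among all 6 libraries the highest for 9 of 10 stroma markers. In whole-kidney RNA, fewer cells of a type and less RNA per cell cannot be told apart.

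DESeq2 gave an adjusted p to 8 of the 9 genes, and 2 of these, Ace and Agtr2, were called lower in TfR1 knockout kidneys at an adjusted p under 0.05. None was called higher. Over all 16509 genes tested, 7.18% were called lower, 7.74% higher and 14.9% in either direction. The median log2 fold change of the 8 genes was -0.29, against 0.0071 over all genes tested. With a further demand of at least a 2-fold change, both calls stood, against 8.87% of all genes. edgeR's quasi-likelihood test called 0 of the 8 at an adjusted p under 0.05, against 6.02% of the 15308 genes it tested (3.22% higher and 2.80% lower). At an unadjusted p under 0.05 it had 3 of the 8, against 3948 of the 15308 genes. limma-voom also called 0 at an adjusted p under 0.05, against 6.15% of genes (3.17% higher and 2.98% lower). At an unadjusted p under 0.05 it had 2 of the 8, against 3982 of the 15308 genes. The values of Ace and Enpep did not overlap between groups, 25% of the 8 genes, against 33.7% of all genes tested.

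**Figure D1:**
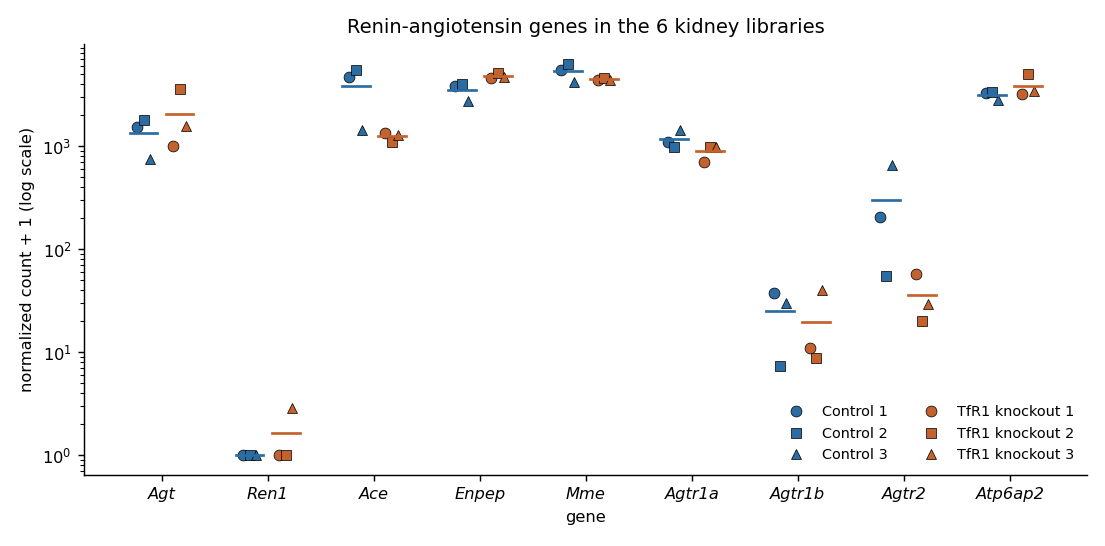
Normalized count plus 1 (log axis) of the 9 genes in each library, with Control in blue, TfR1 knockout in orange, a marker shape per replicate and a bar at each group mean. Ren1 lies at or near 1, that is at 0 to 2 counts, in all 6 libraries, the Control points of Ace split into a high pair and 1 low point, and Agtr2 spreads from 53.6 to 645 normalized counts among Controls.

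Renin could not be measured in these tables. Ren1 (chromosome 1, 135247087 to 135256902, plus strand, mm9) was listed at 0 counts in all 3 Control libraries, at 0 in TfR1 knockout replicates 1 and 2, and at 2 in TfR1 knockout replicate 3. A count of 0 allows up to 3 counts, or 0.131 to 0.181 CPM (counts for every 1000000 counts of a library), which covers counting error only. No fold change is given, because both groups lie at or under that limit. Ren2, the duplicated renin gene of some mouse strains, also has a row in the tables, with 1 count in TfR1 knockout replicate 2 and 0 elsewhere. The GENCODE annotation of mm9 holds Ren1 and no Ren2. Of 701 windows of 100 bases within Ren1 exons, 701 occurred once in the mm9 genome, and no other annotated gene shared bases with those exons. How the submitters' gene annotation placed Ren1 and Ren2 is not given in the sources used here, and its part in the low counts was not tested.

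Other genes of the renin cell and its arteriole were counted in every library, though at low levels for some. The least counted, Tbx18, singled out after its values were seen, had 11 to 31 raw counts per library. The renin cell list held 10 genes, including the gap junction genes Gja5 and Gja4, the pericyte regulator Rgs5 and the adenylyl cyclases Adcy5 and Adcy6. DESeq2 and edgeR called none in either direction, with 0 at an unadjusted p under 0.05 by either tool, and their median log2 fold change was 0.077. Rgs5 had 7673 ± 2567 normalized counts in Control and 7190 ± 1439 in TfR1 knockout libraries (SD, n = 3 each). Akr1b7 of this list is also an adrenal gene, and the adrenal markers above bear on its level.

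The start of Ren1 is shown because the gene cannot be read from the counts, beside those of the angiotensin precursor Agt and of the genes called lower, Ace and Agtr2. Each stretch runs from 250 bases before the RefSeq start (defined in GRCm38.p6) to 50 bases from it, on the gene's strand, and was located in mm9 by exact match. Capitals mark the letters TATAAA on either strand. Agtr1a was not among the promoters matched.
Ren1, chr1:135247001-135247300, plus strand: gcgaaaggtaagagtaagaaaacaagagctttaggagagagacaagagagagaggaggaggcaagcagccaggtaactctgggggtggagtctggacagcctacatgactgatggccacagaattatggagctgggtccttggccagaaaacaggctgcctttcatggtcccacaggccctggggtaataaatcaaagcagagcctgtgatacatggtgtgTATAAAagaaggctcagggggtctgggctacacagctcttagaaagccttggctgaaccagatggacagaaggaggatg
Agt, chr8:127093557-127093856, minus strand: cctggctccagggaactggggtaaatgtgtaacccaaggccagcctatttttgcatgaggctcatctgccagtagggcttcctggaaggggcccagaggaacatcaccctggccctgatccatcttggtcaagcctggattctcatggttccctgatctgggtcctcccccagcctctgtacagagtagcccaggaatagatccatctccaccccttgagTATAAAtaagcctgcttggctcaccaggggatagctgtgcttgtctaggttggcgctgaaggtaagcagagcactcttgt
Ace, chr11:105829012-105829311, plus strand: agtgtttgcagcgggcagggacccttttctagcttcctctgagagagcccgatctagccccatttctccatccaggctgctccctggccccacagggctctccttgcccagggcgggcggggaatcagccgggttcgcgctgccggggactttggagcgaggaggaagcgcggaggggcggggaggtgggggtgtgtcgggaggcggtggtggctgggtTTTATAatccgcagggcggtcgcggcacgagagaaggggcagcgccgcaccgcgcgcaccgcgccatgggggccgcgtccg
Agtr2, chrX:21061500-21061799, plus strand: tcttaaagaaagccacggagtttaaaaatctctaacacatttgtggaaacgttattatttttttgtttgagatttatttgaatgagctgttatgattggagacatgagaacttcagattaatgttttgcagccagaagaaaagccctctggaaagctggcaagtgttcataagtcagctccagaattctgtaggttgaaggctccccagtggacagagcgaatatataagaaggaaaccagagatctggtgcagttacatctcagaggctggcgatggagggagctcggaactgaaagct
The letters TATAAA were found about 30 bases before the start in Ren1 (first base at -29), Agt (-30), Ace (-31, on the opposite strand) and Agtr1b (-31), and in Enpep at -52 and -1, both on the opposite strand. They were present in 5 of the 11 start windows of the 8 matched genes, against 13.62% of 32851 windows of all genes. The letters ACGTG or GCGTG, the core of the hypoxia response element bound by the hypoxia-inducible factors, were found in 2 of the 11 windows, those of Atp6ap2 and of 1 Mme start, against 43.77% of all windows. These matches are a description of the letters and no measure of binding.

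Agt, the substrate of renin (chromosome 8, 127080434 to 127093606, minus strand, mm9), was detected in every library and spread widely within both groups. Control replicates 1 to 3 had 1515, 1768 and 745 normalized counts, and TfR1 knockout replicates 1 to 3 had 1005, 3567 and 1558. The groups overlapped, and TfR1 knockout replicate 2 was higher than every other library. The log2 fold change, TfR1 knockout over Control, was 0.61 (SE 0.48, DESeq2 adjusted p 0.429, 95% interval -0.33 to 1.54). Without TfR1 knockout replicate 2 the sign turned, to -0.064.

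Ace, the converting enzyme (chromosome 11, 105829259 to 105851278, plus strand, mm9), was the peptidase with the lower level in knockout kidneys. Control replicates 1 to 3 had 4634, 5456 and 1419 normalized counts. TfR1 knockout replicates 1 to 3 had 1346, 1102 and 1288. The groups did not overlap, but Control replicate 3 lay only just above the highest knockout library. The level fell to 32.5% of Control, a log2 fold change of -1.62 (SE 0.43, DESeq2 adjusted p 0.00247). edgeR gave -1.63 with an adjusted p of 0.0711, and the DESeq2 call was lost without Control replicate 2 (log2 fold change -1.29, adjusted p 0.054) and without the pair of libraries with the most adrenal marker RNA (-1.49, adjusted p 0.0682). Without Control replicate 3 the change was larger, -2.02 (SE 0.19), with an adjusted p of 4.85e-25 by DESeq2 and of 0.0068 by edgeR.

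The proximal tubule markers moved with Ace across the Control libraries. Summed over the list, Control replicates 1 to 3 had 361681, 389144 and 163009 normalized counts, and TfR1 knockout replicates 1 to 3 had 209411, 281121 and 165739. The low Control library of Ace is thus also the low Control library of the tubule sum. The tubule sums, unlike Ace, overlapped between groups, but single genes weigh heavily in them. Pck1 had 19947 to 33371 normalized counts in Control and 88676 to 171509 in knockout libraries. Kap went the other way, with 46135 to 158797 and 5892 to 11842. Sums without such genes were not computed, so the overlap does not set Ace apart from the tubule markers. Of the 18 markers 6 were called lower and 2 higher, with a median log2 fold change of -0.63. Their part in the Ace result was not tested. Ace shares exon bases on the opposite strand with 1 other annotated gene, Gm11651, and whether counting used strand is not given in the sources used here.

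Enpep and Mme, the other peptidases, were not called, and their point estimates differed in sign. Enpep (chromosome 3, 128972093 to 129035638, minus strand, mm9) had normalized counts of 3810, 4027 and 2711 in the Control libraries, in replicate order, and of 4530, 5136 and 4697 in the knockout libraries. Every knockout library lay above every Control library. The log2 fold change was 0.44 (SE 0.20, DESeq2 adjusted p 0.131, 95% interval 0.044 to 0.85). Mme (chromosome 3, 63099794 to 63186153, plus strand, mm9) had 5388, 6289 and 4130 normalized counts in Control libraries and 4382, 4542 and 4383 in knockout libraries, which overlapped. Its log2 fold change was -0.25 (SE 0.20, DESeq2 adjusted p 0.444, 95% interval -0.64 to 0.14). The Ace interval, -2.46 to -0.78, thus lay below those of both other peptidases, although the differences between genes were not tested.

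**Figure D2:**
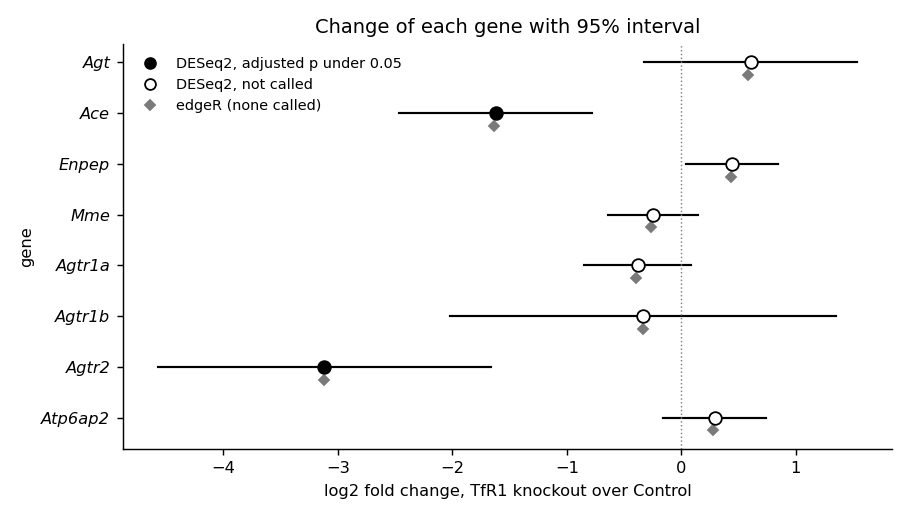
DESeq2 log2 fold change, TfR1 knockout over Control, of the 8 tested genes with its 95% interval (circles, filled where called), and the edgeR estimate (grey diamonds). Ace at -1.62 and Agtr2 at -3.12 are the filled points, and the intervals of Agt, Mme, Agtr1a, Agtr1b and Atp6ap2 include 0.

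Other ectopeptidases of the brush border give the setting of these enzymes. Of 10 such genes 4 were called lower and 0 higher, with a median log2 fold change of -0.87, and edgeR called 3 lower. The metalloprotease subunit Mep1b fell by 4.74 and the aminopeptidase Xpnpep2 by 2.47 on the log2 scale. Ggt1 and Folh1 had log2 fold changes of 0.24 and 0.18 and were not called. The list also holds Anpep, an aminopeptidase that cuts angiotensin peptides and is given with the pathway genes.

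Agtr1a, the main type 1 receptor of the kidney (chromosome 13, 30428310 to 30474736, plus strand, mm9), was expressed throughout. Control replicates 1 to 3 had 1083, 969 and 1421 normalized counts, and TfR1 knockout replicates 1 to 3 had 702, 985 and 977. The groups overlapped through Control replicate 2. The log2 fold change was -0.38 (SE 0.24, DESeq2 adjusted p 0.300, 95% interval -0.85 to 0.086).

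Agtr1b, the second type 1 receptor gene, known for its expression in the adrenal gland (chromosome 3, 20213395 to 20266099, minus strand, mm9), was near the lower limit of counting. Control replicates 1 to 3 had 44, 7 and 27 raw counts, and TfR1 knockout replicates 1 to 3 had 10, 6 and 41. After normalization these were 36.3, 6.36 and 29.1 in Control and 9.94, 7.68 and 38.8 in knockout libraries. The groups overlapped fully, with a log2 fold change of -0.34 (SE 0.86, DESeq2 adjusted p 0.843, 95% interval -2.02 to 1.35). The pair of libraries with the most adrenal marker RNA, Control replicate 1 and TfR1 knockout replicate 3, also had the highest Agtr1b values of their groups, while Control replicate 3 was high in Agtr1b with an adrenal sum of only 279. Without that pair the log2 fold change was -1.0 (SE 1.27, DESeq2 adjusted p 0.883), and the part of adrenal RNA in the Agtr1b counts was not tested. The sign turned, to 0.098 and 0.033, without Control replicate 1 and without TfR1 knockout replicate 2.

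The type 1 receptor genes are near copies, which matters because only uniquely aligned reads were counted. Their coding sequences, 1080 bases each in the mm9 transcripts, were identical at 981 bases (90.8%), and the longest identical run was 66 bases. No window of 100 bases, the read length, was identical in both, and every window of 100 bases within the annotated exons of either gene occurred once in the genome. The first 180 coding bases of each are shown to let the differences be seen, with the 13 bases that differ in capitals.
Agtr1a: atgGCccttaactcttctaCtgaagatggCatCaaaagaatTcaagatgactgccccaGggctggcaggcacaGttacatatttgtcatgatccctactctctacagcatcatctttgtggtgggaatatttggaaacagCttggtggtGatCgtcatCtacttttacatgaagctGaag
Agtr1b: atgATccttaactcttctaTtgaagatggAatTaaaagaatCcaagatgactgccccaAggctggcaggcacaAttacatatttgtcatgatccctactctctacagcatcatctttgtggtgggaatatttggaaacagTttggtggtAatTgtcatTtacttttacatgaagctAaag

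Agtr2, the type 2 receptor (chromosome X, 21061670 to 21066290, plus strand, mm9), had the largest change of the 9 genes and the widest spread among Controls. Control replicates 1 to 3 had 201, 53.6 and 645 normalized counts. TfR1 knockout replicates 1 to 3 had 55.7, 19.2 and 28.4. The groups overlapped, since Control replicate 2 lay below TfR1 knockout replicate 1. The level fell to 11.5% of Control, with a log2 fold change of -3.12 (SE 0.74, DESeq2 adjusted p 5.80e-04). edgeR gave the same estimate with an adjusted p of 0.0818. Without Control replicate 3 the change was -1.89 (adjusted p 0.0483 by DESeq2 and 0.154 by edgeR), and without TfR1 knockout replicate 2 it was -2.83 and no longer called (DESeq2 adjusted p 0.115).

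Stroma markers were highest in the library with the most Agtr2. Summed over the list, Control replicates 1 to 3 had 72753, 69962 and 144621 normalized counts, and TfR1 knockout replicates 1 to 3 had 67300, 33863 and 59146. Every Control sum lay above every knockout sum, but the collagens Col1a1, Col1a2 and Col3a1 weigh heavily in these sums. Col3a1 alone had 24855 to 55623 normalized counts in Control and 9821 to 20548 in knockout libraries. Sums without the collagens were not computed. Taken singly, Col1a2, Col3a1, Lum and Postn did not overlap between groups, while Pdgfra, Col1a1, Dcn, Tcf21, Meis1 and Foxd1 did. Of the 10 markers 3 were called lower by DESeq2 and 0 by edgeR (5 and 3 at an unadjusted p under 0.05), with a median log2 fold change of -0.71. Control replicate 1, with the most adrenal marker RNA, had the second highest Agtr2 value. Without Control replicate 1 and TfR1 knockout replicate 3 the Agtr2 change was -3.22 (SE 0.80, DESeq2 adjusted p 0.00301), as large as with them. The part of stroma in the Agtr2 result was not tested.

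**Figure D3:**
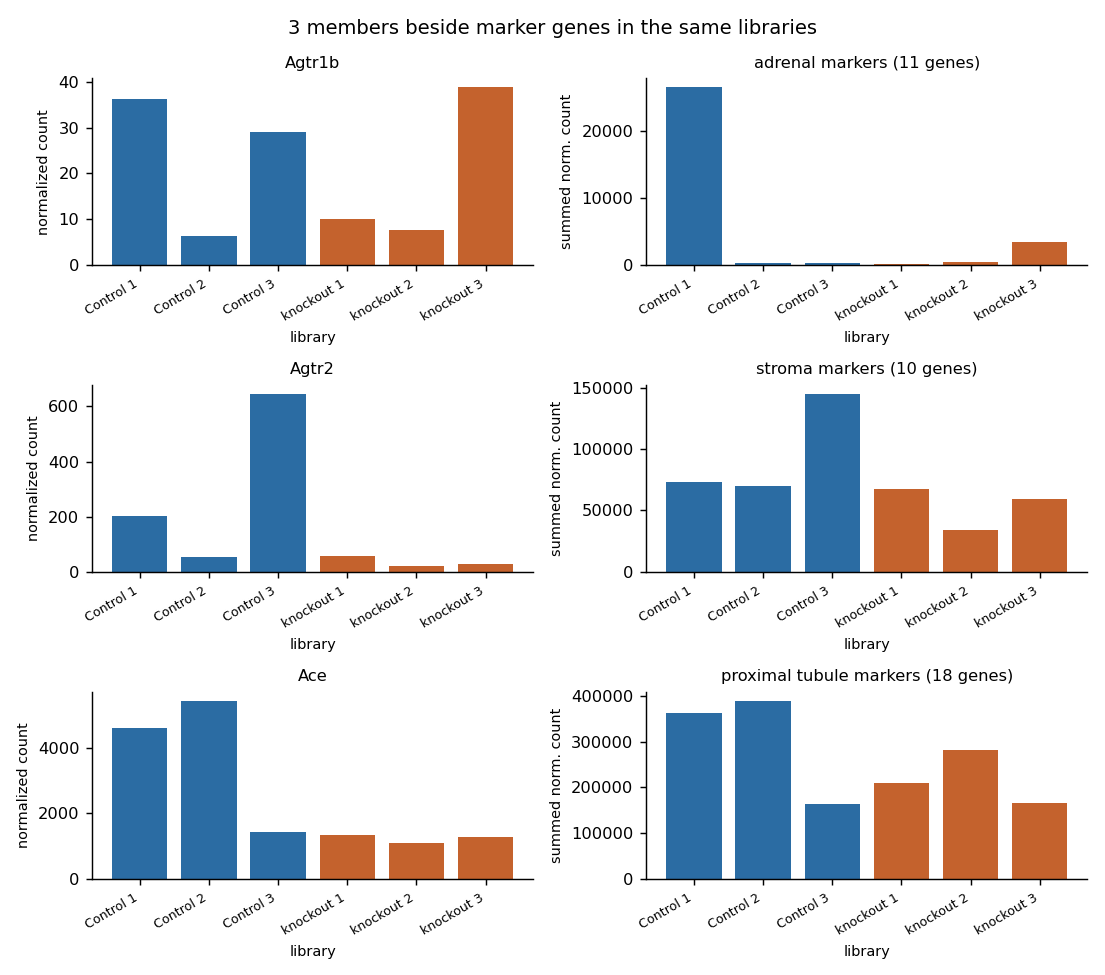
Normalized counts of Agtr1b, Agtr2 and Ace in each library (left), beside the summed normalized counts of 11 adrenal, 10 stroma and 18 proximal tubule markers in the same libraries (right), with Control in blue and TfR1 knockout in orange. Agtr2 and the stroma sum both peak in Control replicate 3 (645 and 144621), where Ace and the tubule sum are at their lowest among Controls, and the adrenal sum peaks in Control replicate 1 (26427).

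Atp6ap2, which binds prorenin and is also an accessory protein of the vacuolar proton pump (chromosome X, 12164927 to 12194175, plus strand, mm9), was steady in most libraries. Control replicates 1 to 3 had 3286, 3361 and 2767 normalized counts, and TfR1 knockout replicates 1 to 3 had 3175, 4951 and 3396. The groups overlapped, and TfR1 knockout replicate 2 stood above the rest. The log2 fold change was 0.29 (SE 0.23, DESeq2 adjusted p 0.428, 95% interval -0.16 to 0.74). The ubiquitous subunits of the pump gave a similar picture, with 1 of 14 tested genes called higher, 0 lower and a median log2 fold change of 0.092. Of the 5 intercalated cell subunits Atp6v0d2 rose by 1.03 and Atp6v1b1 fell by 0.60 on the log2 scale, neither called by edgeR.

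Levels can be compared between the genes only per length. Per kilobase of annotated exon, the Control order was Mme at 1203 ± 248, Atp6ap2 at 1199 ± 123, Enpep at 747 ± 150, Ace at 726 ± 404, Agt at 710 ± 282, Agtr1a at 469 ± 95.3, Agtr2 at 90.2 ± 92.5, Agtr1b at 11.1 ± 7.27 and Ren1 at 0 normalized counts per kilobase (SD, n = 3). Neighbours overlapped in their Control libraries except at 3 steps, from Atp6ap2 to Enpep, from Agtr1a to Agtr2 and from Agtr1b to Ren1. In TfR1 knockout kidneys the order opened with Atp6ap2 at 1467 ± 370, Agt at 1081 ± 713, Enpep at 1017 ± 66.5 and Mme at 1013 ± 21.0. Ace stood in the sixth place there, at 236 ± 24.2 normalized counts per kilobase, below Agtr1a at 360 ± 65.3 without overlap between their libraries.

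**Figure D4:**
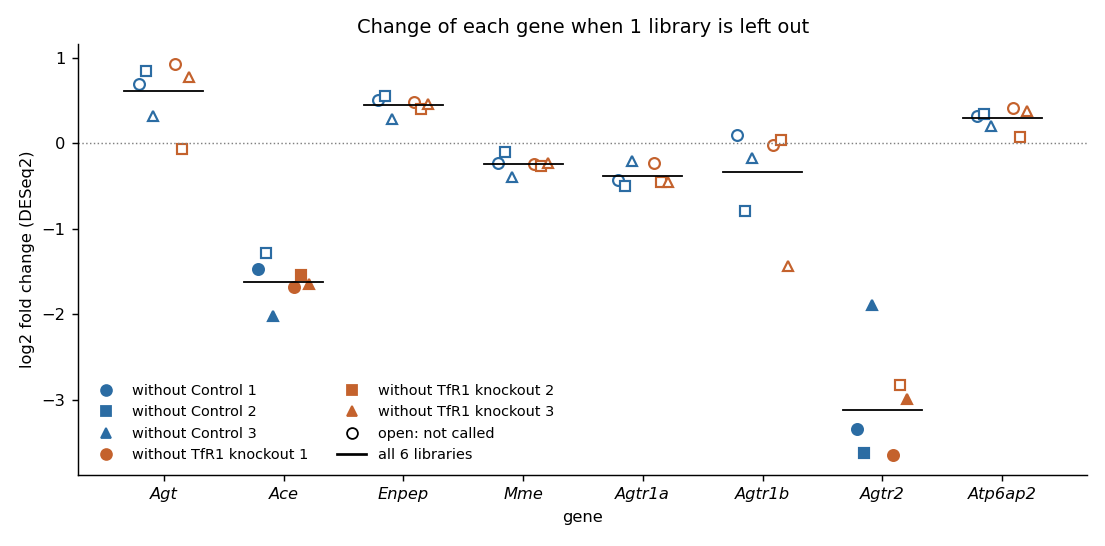
DESeq2 log2 fold change of the 8 tested genes with 1 library left out, by library (blue for a Control, orange for a knockout library, filled where called), with a bar at the value from all 6 libraries. Agtr2 runs from -3.65 to -1.89 and Ace from -2.02 to -1.29, both below 0 throughout, while Agt and Agtr1b cross 0.

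The rest of the pathway was read from 22 further genes of angiotensin and kinin processing, of which 18 had an adjusted p. DESeq2 called 1 higher and 1 lower, against 7.74% and 7.18% of all genes tested, and the median log2 fold change was -0.0020. Ctsd, the lysosomal protease cathepsin D, rose from 14279 ± 935 to 40624 ± 6611 normalized counts (SD, n = 3 each), a log2 fold change of 1.51 (SE 0.18, DESeq2 adjusted p 3.27e-14, edgeR adjusted p 0.0123). Klk1, the tissue kallikrein that releases kinins in the distal nephron, fell from 21789 ± 4351 to 9039 ± 3487, a log2 fold change of -1.27 (SE 0.32, DESeq2 adjusted p 0.00147, edgeR adjusted p 0.0593). Klk1 belongs to a family of near-identical genes, so the share of its reads counted is uncertain.

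The other pathway genes described here were not called. Mas1, the receptor of angiotensin 1-7, had 5 to 13 counts per library, too few to resolve a difference (log2 fold change -0.30, SE 0.80, DESeq2 adjusted p 0.849). The aminopeptidases Anpep and Lnpep had log2 fold changes of -0.53 and 0.88 (DESeq2 adjusted p 0.412 and 0.0805). The mast cell proteases Cma1 and Cpa3, which can act on angiotensin I, were low in both groups (log2 fold changes 0.32 and 0.15). Other proteases of the mast cell list were also low and not called, and they differed in sign. Mcpt4 had a log2 fold change of -2.30 (SE 0.89, DESeq2 adjusted p 0.0610), Tpsb2 of 0.56 and Tpsab1 of 1.55. Mrgprd was listed at 0 in all libraries, and Bdkrb1 and Ctsg were too low to receive an adjusted p.

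**Figure D5:**
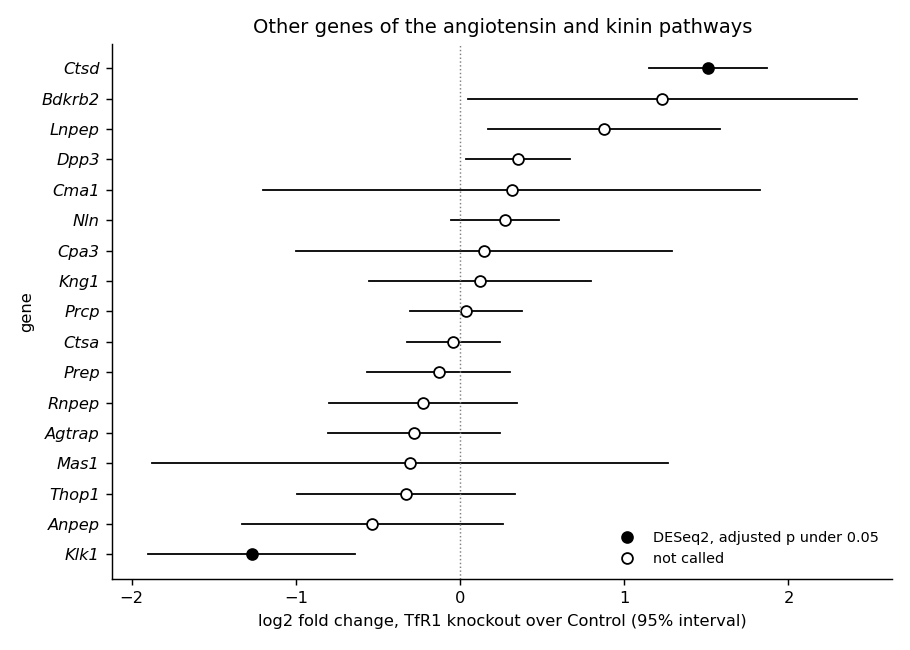
DESeq2 log2 fold change, TfR1 knockout over Control, with its 95% interval for 17 of the 18 tested genes of angiotensin and kinin processing other than the 9 genes above, filled where called. Ctsd at 1.51 and Klk1 at -1.27 are the filled points.

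Genes known to control renin release formed a further list around the renin cell. Of its 15 genes 5 were called higher and 1 lower by DESeq2, against 7.74% and 7.18% of all genes tested. The edgeR test called 2 higher, against 3.22% of all genes, and the median log2 fold change of the list was 0.14. Adora1, the adenosine receptor that inhibits renin release, had 263 ± 116 normalized counts in Control and 972 ± 99.5 in TfR1 knockout libraries (SD, n = 3 each), a log2 fold change of 1.88 (SE 0.34, DESeq2 adjusted p 1.41e-06, edgeR adjusted p 0.0218). Ptgs2, the inducible cyclooxygenase, rose from 35.4 ± 7.81 to 110.4 ± 10.3, a log2 fold change of 1.64 (SE 0.32, DESeq2 adjusted p 1.20e-05, edgeR adjusted p 0.0240). Which kidney cells gave the Ptgs2 reads was not tested. Slc12a1, the salt cotransporter of the thick ascending limb and macula densa, fell by 1.19 on the log2 scale, and edgeR did not call it (adjusted p 0.0854). The beta-1 adrenergic receptor Adrb1 had a log2 fold change of -1.32 and was not called (DESeq2 adjusted p 0.0999).

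Marker lists of other kidney cells gave the makeup beside which these values stand. DESeq2 called 1 of 13 smooth muscle and pericyte genes higher and 2 lower, 2 of 10 podocyte genes higher, 1 of 10 endothelial genes higher and 5 of 9 macrophage genes higher. Of the 8 perirenal fat genes 1 was called higher and 1 lower, and of the 7 mast cell genes tested 0 (1 at an unadjusted p under 0.05, and 0 by edgeR). The macrophage sum ran from 2685 to 4470 normalized counts in Control and from 5965 to 8922 in knockout libraries, the only one of these 6 lists to separate the groups besides podocytes (18029 to 24672 against 25443 to 29441). Ace and Mme are also known from leukocytes and podocytes, and the part of these cells in their values was not tested.

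The genes most like each member over the 6 libraries were named by Pearson correlation of log2 normalized counts plus 1, among genes with a mean of at least 100. For Ace they were Macrod2 (r 0.999), Rab11fip3 (0.998) and Sufu (0.994). For Agtr2 they were Taf9b (0.997), Chaf1b (0.993) and Stil (0.982). Agt was nearest to Kpna4 (0.997), Agtr1a to Col11a1 (0.997), Agtr1b to Meg3 (0.936), Atp6ap2 to Kcnj15 (0.998), Enpep to Mroh1 (0.999) and Mme to Snx25 (0.993). With 6 libraries and many genes searched, values this high are a description of shared libraries only.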

How the data were processed

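Poly-A RNA of 6 whole kidneys was sequenced as single-end reads. The authors processed reads with CASAVA 1.8.2, trimmed them with Trimmomatic, aligned them to mm9 with TopHat 2.0.11 and kept unique alignments. They deposited raw counts per gene symbol from HTSeq, without normalization. The gene annotation and strand setting used for counting are not given in the sources used here. The 6 columns were matched to samples by label. The study describes the controls of its expression comparisons as wild type littermates, but which samples shared a litter is not given. Nothing states that the kidneys of a group came from separate litters. The p-values set the group difference against the spread between these samples only.

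The tables were fitted whole with DESeq2 1.42.0 in R 4.3.3, the tool named by the study, and p-values were adjusted by Benjamini-Hochberg over 16509 genes (mean count above 3.51). The members and lists were chosen with earlier results of these data known. edgeR 4.0.16 and limma 3.58.1 (voom) were alternatives, with other size factors, filters, a replicate block and single libraries left out. Named genes beyond the members were those called in the pathway list and those with the largest changes of the other lists described. Genes closest in pattern were also named. Further pathway, renin cell, adrenal, mast cell and stroma genes were chosen after their values were seen. Exon positions came from GENCODE for mm9. One pathway gene is included in the list counts, but its own values are not reported here.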

Additional observations from a re-analysis of the deposited data

How the results depend on the processing

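DESeq2 called 2 members lower, edgeR and limma-voom 0, and DESeq2 without single libraries 1 to 2. Over all genes, edgeR called 493 higher and 428 lower and limma-voom 485 and 456, against 1277 and 1186 by DESeq2. Requiring a 2-fold change left 728 and 736, and leaving out single libraries gave 664 to 1531 higher and 575 to 1674 lower. Of the other pathway genes, 1 to 2 were called higher and 1 to 2 lower without single libraries, and edgeR and limma-voom called 0 lower. Further settings were chosen after seeing the data. Without Control replicate 1 and TfR1 knockout replicate 3, 1 member was called lower, with 421 genes higher and 260 lower, and 2 other pathway genes higher and 0 lower. edgeR without Control replicate 3 called 1 member lower, 397 genes higher and 449 lower, and 0 other pathway genes lower. The cause of these shifts was not tested, beyond the smaller number of samples. The Agt change ran from -0.064 to 0.93 and the Agtr1b change from -1.43 to 0.098 without single libraries, and turned sign for Agt without TfR1 knockout replicate 2 and for Agtr1b without Control replicate 1 (0.098) or TfR1 knockout replicate 2 (0.033). Of 128 member and setting pairs other than the reported fit, 117 kept direction and call, 8 lost a call and 3 turned sign. All 8 lost calls were those of Ace and Agtr2, the only members with a call to lose. The count of 117 is thus no measure of how stable these calls are.

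Deviations from the group means correlated at -0.038, 0.055 and 0.090 between same-numbered libraries. With 3 libraries a group such values cannot decide whether samples were paired, and no label states a pairing. With the replicate block 1085 genes were called higher and 1087 lower, and 2 members lower, with log2 changes of -1.43 for Ace and -2.61 for Agtr2, and no member's call changed. Counts of Ren1, Agtr1b and Mas1 were too low to resolve changes, and 3 libraries a group with wide spread limit the rest.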
